A study of Mus musculus with 15 samples.

Results

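Arterial endothelial genes are transcripts that endothelial cells (ECs) of arteries carry at higher levels than ECs of capillaries or veins. A set of 8 of them was followed through lung injury: the gap junction genes Gja5 and Gja4, the secreted Wnt modulator Dkk2, the ephrin ligand Efnb2, the transcription factor Sox17, the kinase Bmx, the Notch target Hey1 and the Notch ligand Dll4. They were picked by gene symbol from the 33340 genes of the count table, and all 8 were found and passed the filter on low counts, among 17457 genes tested. The libraries were polyadenylated RNA from whole lungs of C57BL/6 mice, described in the study's methods as males of 10 to 12 weeks. Day 0 was the untreated group (4 libraries), and the other groups were taken at day 7 (4 libraries), day 14 (4) and day 21 (3) after bleomycin, an antitumour antibiotic used to model lung scarring, was given into the trachea at 5 U/kg under Avertin anaesthesia. No saline-treated group was analysed here, so the drug and the instillation itself cannot be told apart.

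Arteries and veins are told apart early in vessel development, when VEGF and Notch signals turn on an arterial programme in ECs. In that programme Dll4 on an EC activates Notch receptors on its neighbour, Hey1 is switched on as a Notch target, Sox17 acts with Notch, and Efnb2 marks the arterial side opposite its receptor EphB4 on the venous side. In the adult lung these genes are read out in arterial ECs, but several are also found in capillary ECs (Efnb2, Hey1, Dll4, Sox17), and Efnb2 and Dkk2 are also made by cells outside the endothelium. In whole-lung RNA, fewer cells of a type and less RNA per cell cannot be told apart, and the cells that made each transcript are not known.

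The libraries held 15652008 to 18020661 counts each, with 22100 to 23970 genes detected. The share of counts from 16 mitochondrial genes differed within days: 2.28 to 4.22% at day 0, 2.03 to 2.15% at day 7, 2.1 to 4.14% at day 14 and 2.66 to 4.01% at day 21. Day 0 replicates 1 and 2, all 4 day 7 libraries and day 14 replicate 1 lay under 2.5%, so this share was partly tied to day, and member calls against day 0 that changed with it as a covariate are given with and without it. Heart muscle genes also varied, from a sum of 18.8 to 58.1 CPM in 11 libraries to 197 CPM in day 0 replicate 4, 290 CPM in day 0 replicate 3, 664 CPM in day 7 replicate 4 and 767 CPM in day 21 replicate 1. Day 0 replicate 4 was titled a control, whereas its treatment label named the drug, and here the title decided its group.

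The promoters of 4 members are shown because 3 of them belong to genes that were higher at days 14 and 21, whereas Bmx is the member that fell the most. Each runs from 250 bases before to 50 bases after the transcript start, 5′ to 3′ on the gene's strand, as given by RefSeq for GRCm38.p6. Gja5 is at chr3:97032152-97032451 (plus strand), Gja4 at chr4:127313990-127314289 (minus strand), Dkk2 at chr3:132085042-132085341 (plus strand) and Bmx at chrX:164258144-164258443 (minus strand). Capitals mark matches on either strand to TGGGAA, the core letters bound by the Notch partner RBPJ, or to ACAAT, the core letters bound by SOX factors.
Gja5: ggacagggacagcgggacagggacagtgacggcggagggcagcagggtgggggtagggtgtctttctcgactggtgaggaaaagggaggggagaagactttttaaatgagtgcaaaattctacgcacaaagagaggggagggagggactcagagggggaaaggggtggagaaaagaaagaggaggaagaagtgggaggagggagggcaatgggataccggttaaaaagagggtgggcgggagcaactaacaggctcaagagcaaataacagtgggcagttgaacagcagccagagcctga
Gja4: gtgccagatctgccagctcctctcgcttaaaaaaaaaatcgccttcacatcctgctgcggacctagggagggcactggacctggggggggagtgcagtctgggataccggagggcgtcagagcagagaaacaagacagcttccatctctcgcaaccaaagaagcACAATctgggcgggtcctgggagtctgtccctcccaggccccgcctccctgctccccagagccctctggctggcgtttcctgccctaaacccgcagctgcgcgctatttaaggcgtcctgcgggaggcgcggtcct
Dkk2: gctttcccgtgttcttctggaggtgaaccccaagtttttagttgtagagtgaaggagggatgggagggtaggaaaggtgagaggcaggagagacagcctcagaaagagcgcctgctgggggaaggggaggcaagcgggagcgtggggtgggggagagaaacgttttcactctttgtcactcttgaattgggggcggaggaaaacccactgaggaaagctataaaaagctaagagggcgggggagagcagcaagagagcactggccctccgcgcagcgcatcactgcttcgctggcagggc
Bmx: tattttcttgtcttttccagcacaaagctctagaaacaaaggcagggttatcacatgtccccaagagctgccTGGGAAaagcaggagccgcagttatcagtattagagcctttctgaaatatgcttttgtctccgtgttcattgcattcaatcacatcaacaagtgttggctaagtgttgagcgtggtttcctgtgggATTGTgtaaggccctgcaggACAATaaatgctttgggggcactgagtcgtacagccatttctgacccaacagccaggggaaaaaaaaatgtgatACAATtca
RefSeq entries were at hand for 6 of 8 members, and not for Sox17 and Hey1. Bmx held a TGGGAA match that starts 178 bases before the transcript start (position -178) and 3 matches to ACAAT (positions -52, -32 and 43), and Gja4 held an ACAAT match at position -86. Gja5, Dkk2, Efnb2 and Dll4 held neither, and none of the 6 held CCGGAA, the string counted here for ETS factors. Shorter ETS strings such as GGAA were not counted, so the lack of CCGGAA does not mean that ETS sites are absent. Among 32851 mouse promoters of the same length, 25.6% held TGGGAA, 31% held ACAAT and 14.9% held CCGGAA, on either strand. The motifs do not share letters with each other in these windows, and a match is only a description of the sequence.

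The 8 genes did not move together after bleomycin (the plot of CPM by day). Gja5, Gja4 and Dkk2 were higher at days 14 and 21 than at day 0. Efnb2, Bmx and Hey1 were lower at days 7 and 14, Dll4 was lower at day 7, and none of these 4 passed the test at day 21. These falls were in relation to all lung RNA and did not pass when libraries were scaled to endothelial RNA, as given further on. Sox17 did not pass against day 0 at any day, and passed between day 7 and each of the later days. Levels are given in CPM, read counts scaled to a common library size after TMM adjustment. Changed genes are those with a fold change above 1.5 whose p in the quasi-likelihood test of edgeR, Benjamini-Hochberg adjusted across the genes tested, was below 0.05. Standard errors (SE) are on the log2 scale. All p-values measure the spread between these libraries, which the study calls biological replicates, while the labels do not name the animals. Days 7, 14 and 21 were each compared with the same 4 day 0 libraries, so the 3 comparisons are not independent.

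**Figure D1:**
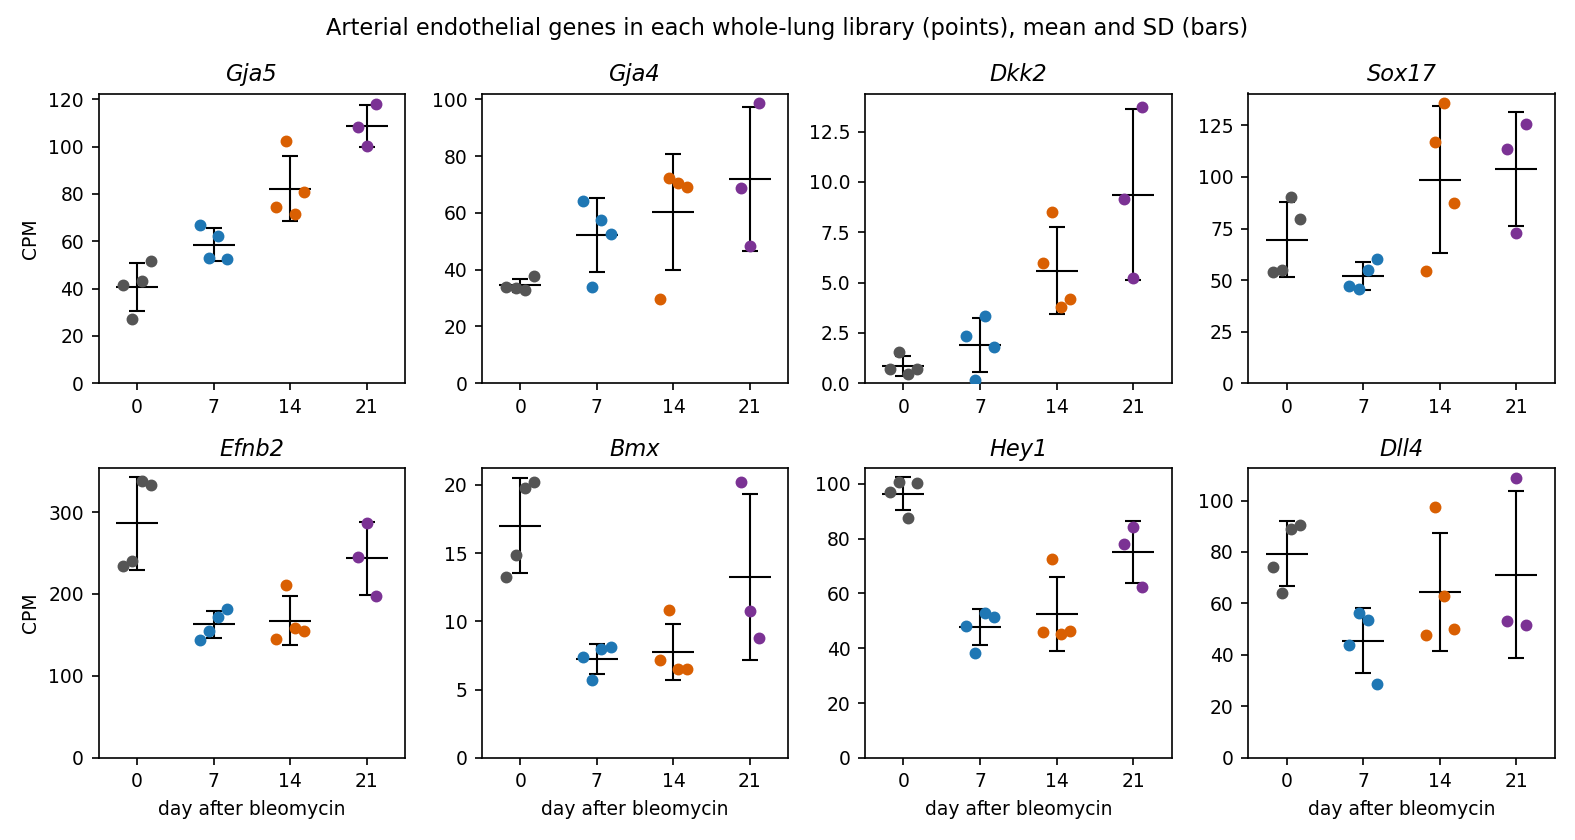
CPM of the 8 arterial endothelial genes in each whole-lung library (points) at days 0, 7, 14 and 21 after bleomycin, with the mean and SD of each day (bars), on axes that start at 0. Gja5 climbs from a mean of 40.8 CPM at day 0 to 109 CPM at day 21, whereas Hey1 drops from 96.4 CPM to 47.7 CPM at day 7 and stands at 74.9 CPM at day 21.

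Gja5 (ENSMUSG00000057123, chr3:96904693-97077416, plus strand) encodes a connexin of the gap junctions that couple arterial ECs. Its level was 41.6, 27.2, 43.1 and 51.5 CPM in the 4 day 0 libraries and 66.8, 52.7, 62.3 and 52.5 CPM at day 7. It then read 74.6, 102.2, 71.6 and 80.7 CPM at day 14 and 108.3, 100.1 and 117.9 CPM at day 21. Every library taken after bleomycin was above every day 0 library, and every day 14 library was above every day 7 library. The mean at day 21 was 109 ± 8.94 CPM (SD, n = 3) against 40.8 ± 10.1 CPM (SD, n = 4) at day 0. Gja5 rose by a log2 fold change of 1.01 at day 14 (SE 0.17, edgeR adjusted p = 0.000337) and 1.41 at day 21 (SE 0.18, edgeR adjusted p = 4.71e-05), and both calls held in every alternative fit. At day 7 the log2 fold change was 0.52 (SE 0.17, edgeR adjusted p = 0.0320), a 1.44-fold difference that stayed under the fold threshold. It passed that threshold with day 0 replicate 4 left out (0.63, edgeR adjusted p = 0.0209) and when mitochondrial share was a covariate (0.70, edgeR adjusted p = 0.0338). Exons of Gja5 share 165 bases with Gpr89 on the opposite strand, whose own counts were 148 to 268 per library against 449 to 2004 for Gja5.

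Gja4 (ENSMUSG00000050234, chr4:127311421-127314039, minus strand) encodes the other connexin of arterial ECs. Its level was 34.0, 33.6, 32.7 and 37.8 CPM in the day 0 libraries and 64.3, 33.9, 57.5 and 52.5 CPM at day 7. It was 29.8, 72.3, 70.6 and 69.1 CPM at day 14 and 68.8, 48.3 and 98.6 CPM at day 21. Day 0 was the tightest group, and 2 libraries stood apart from the rise: day 7 replicate 2 fell inside the day 0 range and day 14 replicate 1 below it. Only day 21 did not overlap day 0. The log2 fold change was 0.59 at day 7 (SE 0.26, edgeR adjusted p = 0.112), 0.81 at day 14 (SE 0.26, edgeR adjusted p = 0.0285) and 1.06 at day 21 (SE 0.28, edgeR adjusted p = 0.0106). The day 14 call was lost on leaving out any of the 8 libraries except day 14 replicate 1, with log2 fold changes of 0.69 to 0.83 and edgeR adjusted p of 0.0502 to 0.0874, whereas without that library it was 1.01 (edgeR adjusted p = 0.00255). It was also lost with mitochondrial share as a covariate (0.71, edgeR adjusted p = 0.0518) and in limma voom (0.72, adjusted p = 0.0640). The day 21 call was lost without day 21 replicate 3 (0.72, edgeR adjusted p = 0.0850).

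Dkk2 (ENSMUSG00000028031, chr3:132085292-132180304, plus strand) encodes a secreted protein that binds the Wnt co-receptors LRP5 and LRP6. It was the least abundant member, with 3 to 233 counts per library. Its level was 0.712, 1.57, 0.444 and 0.725 CPM at day 0 and 2.32, 0.167, 3.35 and 1.78 CPM at day 7. By day 14 it was 5.97, 8.48, 3.78 and 4.17 CPM, and by day 21 it was 9.15, 5.24 and 13.7 CPM. The lowest value of the series was in day 7 replicate 2, and every library of days 14 and 21 was above all 8 libraries of days 0 and 7. Dkk2 rose by a log2 fold change of 2.68 at day 14 (SE 0.59, edgeR adjusted p = 0.0029), about 6.42-fold, and of 3.42 at day 21 (SE 0.62, edgeR adjusted p = 0.000798), about 10.7-fold. Both calls held in every alternative fit. The difference at day 7 was 1.13 (SE 0.60, edgeR adjusted p = 0.179), and it passed the test without day 7 replicate 2 (1.52, edgeR adjusted p = 0.0334).

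Efnb2 (ENSMUSG00000001300, chr8:8617434-8661242, minus strand) encodes ephrin-B2, the membrane ligand of Eph receptors that is the classical arterial mark. It read 234.4, 239.8, 338.4 and 332.8 CPM at day 0, with the lower pair in replicates 1 and 2, and 143.3, 154.7, 171.9 and 181.2 CPM at day 7. At day 14 it was 144.6, 211.3, 158.6 and 154.9 CPM, and at day 21 it was 244.8, 287.1 and 198.1 CPM. All 8 libraries of days 7 and 14 were below every day 0 library, and day 21 overlapped days 0 and 14 but lay above day 7. Efnb2 fell by a log2 fold change of 0.82 at day 7 (SE 0.16, edgeR adjusted p = 0.00258) and 0.77 at day 14 (SE 0.16, edgeR adjusted p = 0.00198). The day 21 difference was -0.23 (SE 0.17, edgeR adjusted p = 0.337). With mitochondrial share as a covariate the day 7 difference was -0.54 (edgeR adjusted p = 0.0414), under the fold threshold, and within the libraries of low share (4 at day 7, 2 at day 0) it was -0.56 (edgeR adjusted p = 0.0106).

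Bmx (ENSMUSG00000031377, chrX:164192842-164258193, minus strand) encodes a Tec family tyrosine kinase found in arterial ECs and in the endocardium. Its level was 13.3, 14.9, 19.7 and 20.2 CPM at day 0 and 7.36, 5.69, 7.96 and 8.09 CPM at day 7. It stayed at 7.15, 10.8, 6.52 and 6.52 CPM at day 14, and was 20.2, 10.8 and 8.77 CPM at day 21. Days 7 and 14 lay wholly below day 0. Bmx fell by 1.23 on the log2 scale at day 7 (SE 0.25, edgeR adjusted p = 0.00334), to 42.8% of day 0, and by 1.14 at day 14 (SE 0.25, edgeR adjusted p = 0.00316). With mitochondrial share as a covariate the day 7 difference was -0.86, and the call was kept only narrowly (edgeR adjusted p = 0.04997). Day 21 replicate 1 was as high as the highest day 0 library, and the other two were below all of day 0. The difference at day 21 was -0.36 (SE 0.27, edgeR adjusted p = 0.338), and it was -0.84 (edgeR adjusted p = 0.0278) without that library. The same library held the highest sum of heart muscle genes, 767 CPM, and day 0 replicates 3 and 4, the higher day 0 pair for Bmx, held 290 and 197 CPM. Day 7 replicate 4 held 664 CPM of heart muscle genes with Bmx at 8.09 CPM, and the part of heart tissue in these values was not tested.

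Hey1 (ENSMUSG00000040289, chr3:8663359-8667256, minus strand) encodes a transcriptional repressor that Notch switches on directly. It was 97.1, 100.5, 87.6 and 100.4 CPM at day 0 and 47.9, 38.2, 53.0 and 51.6 CPM at day 7. At day 14 it was 46.0, 72.6, 45.1 and 46.1 CPM, and at day 21 it was 78.1, 84.3 and 62.4 CPM. No library taken after bleomycin reached the lowest day 0 library. Hey1 fell by a log2 fold change of 1.02 at day 7 (SE 0.16, edgeR adjusted p = 0.000437), to 49.4% of day 0, and by 0.88 at day 14 (SE 0.16, edgeR adjusted p = 0.000606). Day 14 replicate 2 stood alone above the other 3, and without it the day 14 difference was -1.10 (edgeR adjusted p = 4.36e-05). At day 21 the difference was -0.36 (SE 0.17, edgeR adjusted p = 0.117), with the 2 groups still not overlapping.

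Dll4 (ENSMUSG00000027314, chr2:119325784-119335962, plus strand) encodes the Notch ligand of arterial and sprouting ECs. It was 74.2, 64.0, 88.8 and 90.5 CPM at day 0 and 43.8, 56.4, 53.6 and 28.6 CPM at day 7. It was then 47.9, 97.5, 62.9 and 50.1 CPM at day 14 and 53.3, 108.6 and 51.7 CPM at day 21. Day 7 lay below day 0, whereas at days 14 and 21 a single library, replicate 2 of each day, was above all of day 0 and the rest were below. Dll4 fell by 0.80 at day 7 on the log2 scale (SE 0.28, edgeR adjusted p = 0.0447). That call was lost on leaving out any of the 8 libraries except day 0 replicate 2, with edgeR adjusted p of 0.0506 to 0.112, and with mitochondrial share as a covariate (-0.54, edgeR adjusted p = 0.315). The differences were -0.30 at day 14 (SE 0.27, edgeR adjusted p = 0.431) and -0.16 at day 21 (SE 0.30, edgeR adjusted p = 0.729). Exons of Dll4 share 214 bases with Gm14207 on the opposite strand, which had 21 to 87 counts per library against 481 to 1906 for Dll4, and the strand setting of the counting was not given.

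Sox17 (ENSMUSG00000025902, chr1:4490931-4497354, minus strand) encodes a SoxF transcription factor needed for arterial identity. Its level was 53.9, 54.8, 90.0 and 79.6 CPM at day 0 and 47.4, 45.6, 54.8 and 60.2 CPM at day 7. It was 54.5, 116.8, 135.9 and 87.4 CPM at day 14 and 113.3, 72.7 and 125.8 CPM at day 21. The lower pair at day 0 and the lowest library of day 14 were all libraries of low mitochondrial share, and every day overlapped day 0. Against day 0 the log2 fold change was -0.42 at day 7 (SE 0.25, edgeR adjusted p = 0.234), 0.50 at day 14 (SE 0.25, edgeR adjusted p = 0.136) and 0.58 at day 21 (SE 0.27, edgeR adjusted p = 0.118). Without day 14 replicate 1 the day 14 difference was 0.68 (edgeR adjusted p = 0.0293). Exons of Sox17 share 804 bases with Gm37587 on the opposite strand, which had 0 to 3 counts per library against 817 to 2376 for Sox17.

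**Figure D2:**
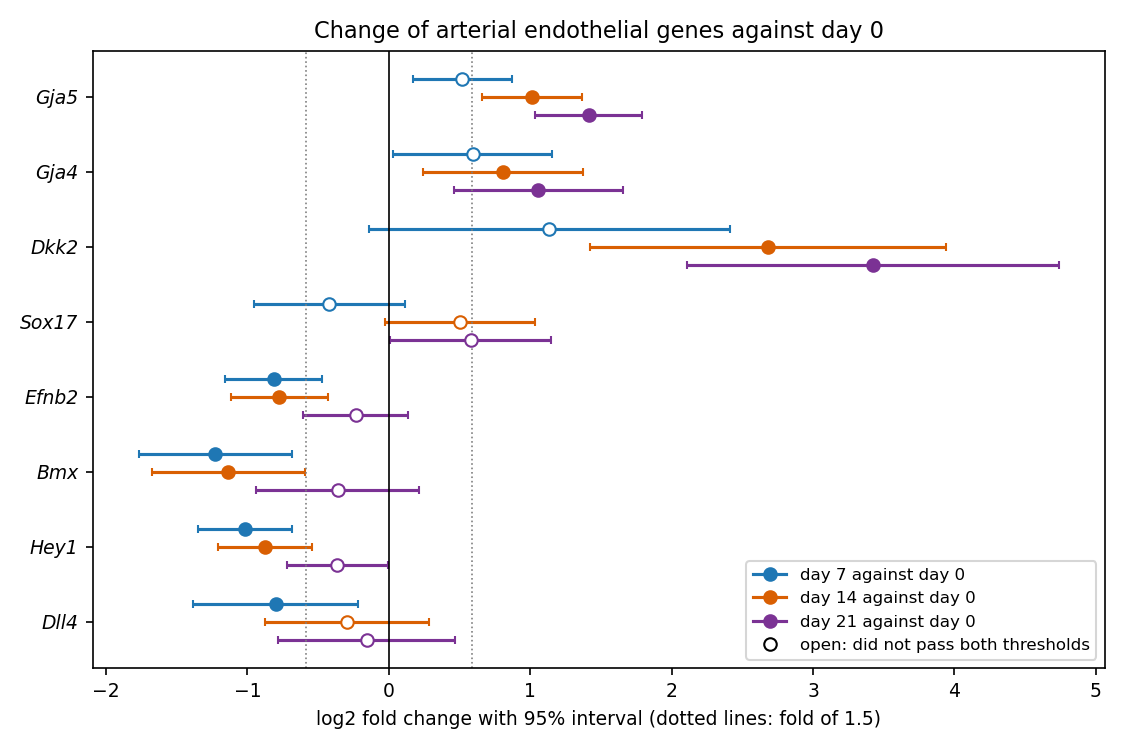
Log2 fold change of each arterial endothelial gene at days 7, 14 and 21 against day 0 (x axis) with the 95% interval from the edgeR fit. Filled points passed both thresholds, open points did not, and dotted lines mark a 1.5-fold change. Gja5, Gja4 and Dkk2 lie to the right at each day, whereas Efnb2, Bmx and Hey1 lie furthest left at day 7 and are open at day 21.

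Counted together, at day 7 none of the 8 members rose and 4 fell (Efnb2, Bmx, Hey1 and Dll4), beside 8.78% of all genes tested that rose and 7.36% that fell (16.1% in either direction). DESeq2 (beside 8.92% of all genes higher and 9.33% lower) and limma voom (8.4% and 7.07%) also gave 0 members higher and 4 lower. In edgeR 6 members were under an unadjusted p of 0.05, beside 38.2% of all genes. At day 14, 3 members rose (Gja5, Gja4 and Dkk2) and 3 fell (Efnb2, Bmx and Hey1), beside 12% of genes higher and 11.2% lower (23.1% together). DESeq2 gave the same counts of 3 and 3 (beside 12% and 12.3% of all genes), and limma voom gave 2 higher and 3 lower (beside 11.3% and 11.5%). At day 21 the same 3 members as at day 14 were higher and none lower, beside 12.4% and 10.1% of genes (22.5% together). DESeq2 and limma voom also gave 0 members lower at day 21, beside 11.6% and 10.4% of all genes. In edgeR 5 members had an unadjusted p under 0.05 in either direction, of which only Hey1 was lower, beside 40.5% of all genes. The median log2 fold change of the 8 members was -0.61 at day 7, 0.10 at day 14 and 0.21 at day 21, against 0.01, 0.02 and 0.02 over all genes tested. With mitochondrial share as a covariate the member medians were -0.23, 0.02 and 0.20, and within libraries of like share the day 7 median was -0.32. On leaving out single libraries the median ran from -0.73 to -0.52 at day 7, -0.10 to 0.24 at day 14 and 0.08 to 0.28 at day 21. The sign at day 14 thus depended on single libraries. Without day 0 replicate 4, the library whose labels disagree, 1 member was higher (Gja5) and 3 lower at day 7, beside 6.82% and 5.29% of all genes. In that fit 2 were higher and 3 lower at day 14 (10.6% and 10.3% of all genes), and 3 higher and 0 lower at day 21 (10.8% and 9.89%). The medians cover opposite movements, with a span from -1.23 to 1.13 at day 7 and from -0.36 to 3.42 at day 21.

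Between the later time points all 8 point estimates were upward. From day 7 to day 21, 5 members rose, and none fell, beside 5.2% of all genes higher and 4.34% lower (9.54% together): Gja5 by a log2 fold change of 0.89 (SE 0.18, edgeR adjusted p = 0.00647), Dkk2 by 2.29 (SE 0.58, edgeR adjusted p = 0.0197), Sox17 by 1.0 (SE 0.27, edgeR adjusted p = 0.0264), Bmx by 0.86 (SE 0.27, edgeR adjusted p = 0.0474) and Hey1 by 0.65 (SE 0.17, edgeR adjusted p = 0.0207). Efnb2 had a log2 fold change of 0.58 (SE 0.17, edgeR adjusted p = 0.0396), which was just under the fold threshold, while Dll4 was at 0.64 (edgeR adjusted p = 0.155) and Gja4 at 0.47 (edgeR adjusted p = 0.277). DESeq2 gave 6 higher (beside 6.78% of all genes) and limma voom 4 (beside 4.9%). On the scale of pan-endothelial RNA described further on, 2 members, Dkk2 and Sox17, were higher and none lower, beside 1.66% of all genes higher and 3.69% lower, and Gja5 was at 0.73 (edgeR adjusted p = 0.0519), Bmx at 0.71 (edgeR adjusted p = 0.152) and Hey1 at 0.48 (edgeR adjusted p = 0.184). Leaving out single libraries ended some of these calls: Bmx was at 0.41 (edgeR adjusted p = 0.335) without day 21 replicate 1, Dkk2 at 1.89 (edgeR adjusted p = 0.0606) without day 21 replicate 3, Hey1 at 0.54 (edgeR adjusted p = 0.0907) without day 21 replicate 2, and Sox17 at 0.81 (edgeR adjusted p = 0.0799) without day 21 replicate 3. Bmx was also lost without each other library of the comparison except day 21 replicate 3, Sox17 without day 21 replicate 1 or day 7 replicates 1, 2 or 3, and Hey1 without day 21 replicate 1 or day 7 replicates 1 or 2. With mitochondrial share as a covariate only Gja5 and Dkk2 passed, and Sox17 was at 0.50 (edgeR adjusted p = 0.219), Bmx at 0.44 (edgeR adjusted p = 0.388) and Hey1 at 0.58 (edgeR adjusted p = 0.106).

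From day 7 to day 14 only Sox17 rose, by a log2 fold change of 0.92 (SE 0.25, edgeR adjusted p = 0.0379), and none fell, beside 2.77% of all genes higher and 3.23% lower (6% together). Of the other members, 2 more were under an unadjusted p of 0.05 (Gja5 and Dkk2), beside 25% of all genes. DESeq2 gave 2 members higher (beside 4.66% of all genes) and limma voom 0 (beside 2.28%). On the pan-endothelial scale Sox17 was at 0.79 (edgeR adjusted p = 0.0643). The Sox17 call was lost with mitochondrial share as a covariate (0.31, edgeR adjusted p = 0.588) and on leaving out any day 7 library or day 14 replicate 2 or 3 (0.73 to 1.0, edgeR adjusted p of 0.0704 to 0.111). From day 14 to day 21 no member and no other gene passed the thresholds in edgeR (0%). In that comparison 4 members (Gja5, Efnb2, Bmx and Hey1) and 1714 genes in all (9.82%) had an unadjusted p under 0.05, and DESeq2 called 106 genes and limma voom 0, with 0 members in either.

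Compared per kilobase of merged exon, the order of the 8 genes changed with time (the plot of CPM per kilobase). At day 0 Efnb2 was first at a mean of 41.8 CPM per kilobase, followed by Hey1 at 29.5, Dll4 at 20.6, Gja4 at 20.5, Sox17 at 14.6, Gja5 at 7.11, Bmx at 5.51 and Dkk2 at 0.233. Neighbours in that order overlapped only for Dll4 with Gja4 and for Gja5 with Bmx. From day 7 on, Gja4 had the highest mean, at 30.9, 35.9 and 42.7 CPM per kilobase, but its range overlapped that of Efnb2 (means of 23.7, 24.4 and 35.5) at each day. Gja5 went from 7.11 CPM per kilobase at day 0 to 10.2, 14.3 and 18.9 at days 7, 14 and 21, and at day 21 Hey1 (22.9), Sox17 (21.8), Gja5 and Dll4 (18.5) formed a run in which each neighbour overlapped the next. Bmx and Dkk2 stayed last, and their ranges overlapped at days 14 and 21.

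Ratios of members within a library give the members' relation on a scale that does not depend on library size. The ratio of Gja5 to Hey1 per kilobase was 0.154 to 0.292 in the day 0 libraries, 0.579 to 0.792 at day 7, 0.800 to 0.994 at day 14 and 0.674 to 1.07 at day 21. Gja4 to Efnb2 was 0.393 to 0.590 at day 0, 0.891 to 1.83 at day 7, 0.837 to 1.81 at day 14 and 0.684 to 2.03 at day 21. In both ratios the lowest library after bleomycin was above the highest at day 0. Dll4 to Hey1, the ratio of ligand to target, overlapped day 0 at days 7 and 21, with 0.540 to 0.860 at day 0, 0.470 to 1.25 at day 7, 0.881 to 1.18 at day 14 and 0.579 to 1.09 at day 21. These 3 pairs were chosen with their values known and carry no test.

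**Figure D3:**
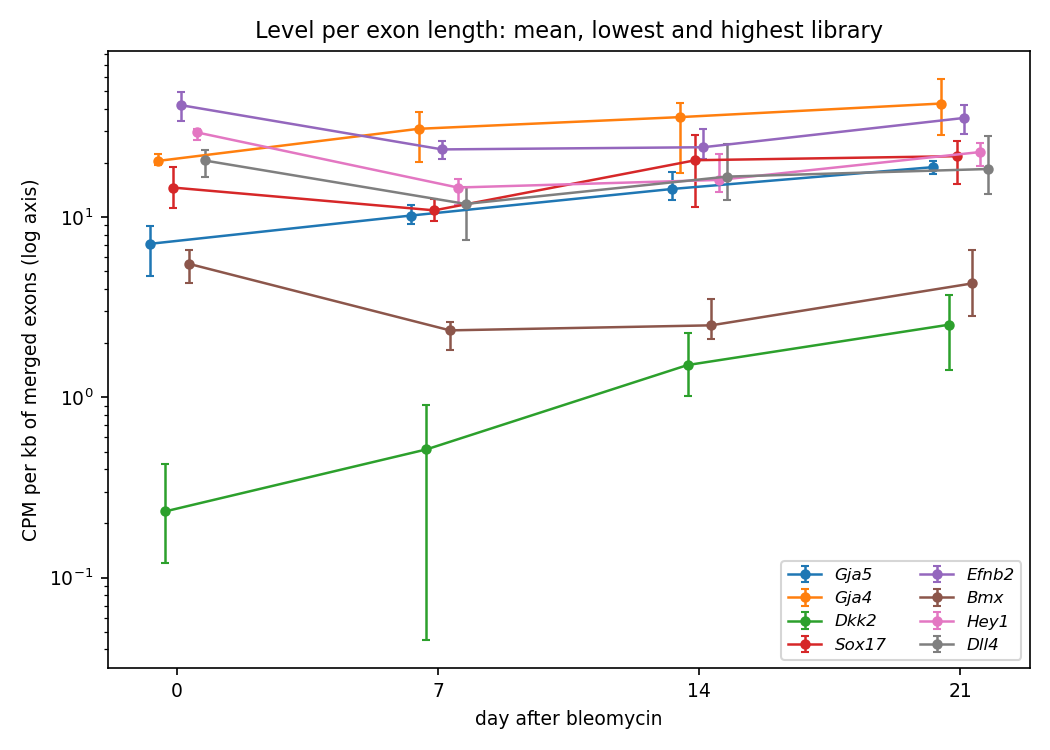
Mean CPM per kilobase of merged exons (log axis) of the 8 arterial endothelial genes at days 0, 7, 14 and 21, with bars from the lowest to the highest library of each day. Efnb2 is first at day 0 (41.8) and Gja4 has the highest mean from day 7 on (30.9 at day 7), while Dkk2 is lowest at each day.

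To set the members against endothelial RNA as a whole, 12 pan-endothelial genes were used, among them Pecam1 and Cdh5, adhesion molecules of EC junctions. None of the 12 rose at any day, and 5, 4 and 2 fell at days 7, 14 and 21. Their median log2 fold changes were -0.55, -0.43 and -0.43. Pecam1 went from 812 ± 65.0 CPM (SD, n = 4) at day 0 to 637 ± 69.7 at day 7, 537 ± 108 at day 14 and 564 ± 47.6 (n = 3) at day 21, and passed the test at day 14 (-0.60, edgeR adjusted p = 0.00458). Falls of more than 1 on the log2 scale were in Egfl7, an endothelial matrix factor (-1.07 at day 7, edgeR adjusted p = 0.0302), in Erg, an ETS factor of ECs (-1.03 at day 7, edgeR adjusted p = 0.000995), and in Ramp2, a co-receptor for adrenomedullin (-1.03 at day 14, edgeR adjusted p = 0.000857). Scored as the mean log2 CPM of the list minus its day 0 mean, pan-endothelial RNA was -0.72 to -0.36 in the day 7 libraries, -0.89 to -0.19 at day 14 and -0.54 to -0.15 at day 21, against -0.27 to 0.16 at day 0. The same score over the 8 arterial members was -0.76 to -0.02, -0.10 to 0.67 and 0.52 to 0.72, against -0.14 to 0.18 at day 0. Much of it came from Dkk2, the member with the fewest counts: without Dkk2 (left out after seeing the data) the score was -0.63 to -0.30 at day 7, -0.51 to 0.30 at day 14 and 0.19 to 0.34 at day 21, against -0.22 to 0.21 at day 0. The summed level of the 8 members, which Efnb2 leads, was 677 to 717 CPM at day 21 and 536 to 713 CPM at day 0, and overlapped. The member score minus the pan-endothelial score was -0.13 to 0.20 at day 0, -0.04 to 0.50 at day 7, 0.37 to 1.03 at day 14 and 0.67 to 1.2 at day 21. Without Dkk2 it was -0.095 to 0.063 at day 0, 0.042 to 0.26 at day 7, 0.089 to 0.66 at day 14 and 0.38 to 0.81 at day 21. Both forms lay above day 0 from day 14 on, with no overlap.

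When each library was scaled to its pan-endothelial score, the members moved up with all other genes (the median of all genes shifted to 0.57, 0.51 and 0.41 at days 7, 14 and 21), and the falls no longer passed. Of all genes, 39.7%, 36.6% and 24.8% were higher and 1.67%, 4.18% and 4.57% lower at the 3 days, beside 3, 4 and 4 members higher and none lower. On this scale Gja5, Gja4 and Dkk2 were higher at all 3 days, with log2 fold changes of 1.12, 1.14 and 1.59 at day 7 (edgeR adjusted p = 0.000746, 0.00329 and 0.0402). Sox17 passed as well, at 0.95 at day 14 (edgeR adjusted p = 0.0029) and 1.03 at day 21 (edgeR adjusted p = 0.00361). Efnb2 was at -0.24, -0.27 and 0.15 and Hey1 at -0.48, -0.40 and -0.00 at days 7, 14 and 21 (edgeR adjusted p for Hey1 of 0.0510, 0.0958 and 0.998). Bmx was at -0.66, -0.62 and 0.06 (edgeR adjusted p = 0.0526, 0.0649 and 0.893), with the first 2 past the fold threshold, and Dll4 at -0.21, 0.18 and 0.19. Relative to the median shift of all genes, only values above 0.57, 0.51 and 0.41 are higher than those of a typical gene.

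**Figure D4:**
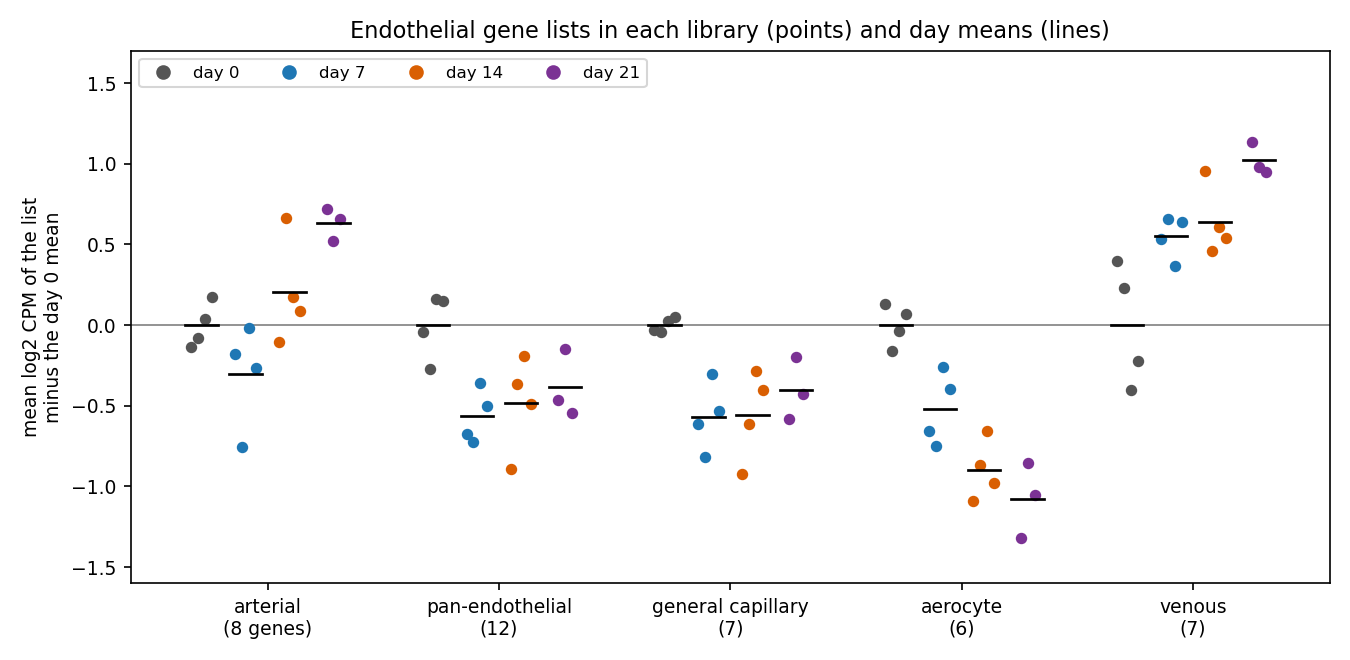
Mean log2 CPM of each endothelial gene list in each library minus the day 0 mean of that list (points), with day means (lines), for arterial (8 genes), pan-endothelial (12), general capillary (7), aerocyte (6) and venous (7) genes. At day 21 the arterial score is 0.52 to 0.72, or 0.19 to 0.34 without Dkk2, and the venous score 0.95 to 1.13, whereas the pan-endothelial score is -0.54 to -0.15 and the aerocyte score -1.32 to -0.85. The venous score includes Ackr1, which had only 0 to 10 counts per library at day 0. The median log2 fold change of the venous list at day 21 is 0.62, below its score.

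Of 10 other arterial endothelial markers, 1 rose and 2 fell at day 7, 3 rose and 3 fell at day 14, and 5 rose and none fell at day 21, with median log2 fold changes of -0.16, 0.01 and 0.28. Unc5b, a netrin receptor of arterial and tip ECs, rose at each day, by 0.85, 1.48 and 1.85 on the log2 scale (edgeR adjusted p = 0.00135, 6.9e-06 and 3.48e-06), from 18.9 ± 2.14 CPM (SD, n = 4) at day 0 to 68.0 ± 13.2 CPM (SD, n = 3) at day 21. Pcsk5, a proprotein convertase, rose at days 14 and 21 by 1.11 and 1.53 (edgeR adjusted p = 0.00966 and 0.00212). Igfbp3, a carrier of insulin-like growth factors, fell by 2.33 at day 7 (edgeR adjusted p = 0.00467) and 1.48 at day 14 (edgeR adjusted p = 0.0308), and Depp1 fell by 1.33 at day 14 (edgeR adjusted p = 0.0350). Sema3g, a semaphorin of arterial ECs, fell at day 7 (-0.69, edgeR adjusted p = 0.0238). Unc5b was the only gene of the 10 that passed at all 3 days.

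Of 12 further Notch pathway genes, 1 fell at day 7 and 1 rose at each of days 14 and 21. The receptor gene Notch4, which ECs carry, fell by 0.61 at day 7 (edgeR adjusted p = 0.0473), from 172 ± 15.2 CPM (SD, n = 4) to 113 ± 11.2 CPM (SD, n = 4). Heyl, a Notch target of vascular smooth muscle, rose by 0.62 at day 14 (edgeR adjusted p = 0.00963) and 0.93 at day 21 (edgeR adjusted p = 0.00109). Notch1 did not pass at any day (-0.19, -0.26 and 0.20). Heyl was at 0.32 at day 7 (edgeR adjusted p = 0.160), and the other Notch targets on the list, Hes1, Hey2 and Nrarp, had day 7 log2 fold changes of -0.33, -0.42 and -0.63, none of which passed (edgeR adjusted p = 0.224, 0.235 and 0.0963).

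Of 12 inputs to arterial specification, growth factor, receptor and transcription factor genes, 1 fell at day 7, 2 at day 14 and 2 at day 21, and 1 rose at day 21. Klf2, a factor that ECs switch on under flow, fell by 1.34 at day 7 (edgeR adjusted p = 0.0160) and 1.15 at day 21 (edgeR adjusted p = 0.0418), though day 0 itself ranged from 113 to 428 CPM. The VEGF receptor gene Kdr fell by 0.87 at day 14 (edgeR adjusted p = 0.0121) and 0.96 at day 21 (edgeR adjusted p = 0.0132). Foxc2, a forkhead factor upstream of Dll4, rose by 1.28 at day 21 (edgeR adjusted p = 0.0345) from a mean of 0.793 CPM at day 0. Vegfa itself did not pass (-0.44, 0.03 and -0.31). The other SoxF genes, Sox7 and Sox18, did not pass at any day, with log2 fold changes at day 21 of -0.60 (edgeR adjusted p = 0.0808) and 0.24 (edgeR adjusted p = 0.386).

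Among 9 receptors and partners of the members, 3 rose at day 7, 2 rose and 1 fell at day 14, and 2 rose at day 21. Gja1, a connexin of many lung cells, rose by 1.48, 1.42 and 0.70 at days 7, 14 and 21 (edgeR adjusted p = 0.000426, 0.000255 and 0.0372). Gja1 then fell by 0.78 from day 7 to day 21 (edgeR adjusted p = 0.0463), and days 7 and 14 differed by -0.06 (edgeR adjusted p = 0.895). Epha4, an Eph receptor that also binds ephrin-B2, rose at each day (0.63, 0.95 and 0.73), and Ephb2 at day 7 (1.27, edgeR adjusted p = 0.0360). Ephb4, the venous receptor of ephrin-B2, did not pass the thresholds, with 161 ± 7.44 CPM (SD, n = 4) at day 0 and 212 ± 26.5 CPM (SD, n = 3) at day 21 (0.40, edgeR adjusted p = 0.0382). The Dkk2 receptor gene Lrp5 fell by 0.64 at day 14 (edgeR adjusted p = 0.0049), and Lrp6 did not pass (-0.28 at day 14).

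Other endothelial classes were followed with a list each. Of 6 aerocyte genes, markers of the wide capillary ECs of gas exchange, none rose and 2, 3 and 4 fell at days 7, 14 and 21, with medians of -0.43, -0.74 and -1.22. Fibin and Ednrb fell at each day, to -1.67 (edgeR adjusted p = 7.68e-05) and -1.25 (edgeR adjusted p = 0.000155) at day 21, and Car4, a carbonic anhydrase, fell by 1.25 at day 21 (edgeR adjusted p = 0.00222). Of 7 general capillary genes, 1, 2 and 0 fell at the 3 days and none rose in edgeR, while the median was -0.51, -0.53 and -0.44. Ptprb and Sema3c fell by 0.72 and 0.73 at day 14, and Gpihbp1, the anchor of lipoprotein lipase, did not pass (-0.71, -0.24 and 0.38). Of 7 venous genes, 3, 3 and 4 rose and 1, 0 and 0 fell, with medians of 0.13, 0.21 and 0.62. The one that fell was Slc6a2, a noradrenaline transporter (-0.68 at day 7, edgeR adjusted p = 0.0496). Ackr1, a chemokine receptor of venules, went from a mean of 0.315 CPM at day 0, where a library was at 0, to 4.79 CPM at day 21. Selp, an adhesion molecule for leukocytes, rose from 3.90 to 13.8 CPM (1.82, edgeR adjusted p = 0.000639), and Nr2f2, the venous transcription factor, did not pass (-0.02, -0.11 and 0.08). In the comparison of day 21 with day 7, in which 5 of the 8 members rose, genes of these lists rose as well: Gpihbp1 (1.09, edgeR adjusted p = 0.0200) and Ptprb (0.61, edgeR adjusted p = 0.0374) of 7 general capillary genes, Vwf (0.85, edgeR adjusted p = 0.00974) of 7 venous genes, Erg (1.09, edgeR adjusted p = 0.00356) of 12 pan-endothelial genes, and none of 6 aerocyte genes, of which Apln fell (-1.13, edgeR adjusted p = 0.0427). Their medians there were -0.02, 0.49, 0.06 and -0.53, beside 0.76 for the members and 0.00 for all genes. Of the 10 other arterial endothelial markers 3 rose and 0 fell in that comparison, with a median of 0.54. With mitochondrial share as a covariate the member median was 0.47. No test of one list against another was run.

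Genes of cells that share the arterial wall or the sample were followed too. Of 8 arterial smooth muscle genes, 1, 3 and 4 rose at days 7, 14 and 21 and none fell, with a summed level of 311 to 416 CPM at day 0, 593 to 707 at day 7, 495 to 1188 at day 14 and 439 to 1085 at day 21, and no gene of the list was at 0 counts in any library. Acta2, shared by smooth muscle and myofibroblasts, rose by 1.46, 1.87 and 1.74 (edgeR adjusted p = 0.00404, 0.000418 and 0.00115) and Actg2 by 1.60 at day 14, whereas Myh11, the defining smooth muscle gene, did not pass (0.24, -0.19 and 0.47). Day 14 replicate 1, in which Gja4, Sox17, Efnb2 and Dll4 were lowest for that day, had the highest smooth muscle sum of all (1188 CPM). That library also had the lowest pan-endothelial score of the series (-0.89). Of 5 fibroblast genes, 1, 1 and 1 rose and 0, 2 and 2 fell, with Col1a1 higher by 2.20, 2.87 and 2.99 and Pi16 and Tcf21 lower at day 21 (-1.42 and -1.39). Of 6 neutrophil genes, 4, 2 and 4 fell and none rose, with summed levels of 403 to 921 CPM at day 0 and 91.2 to 181 CPM at day 21, and S100a8, S100a9 and Cxcr2 at -2.50, -3.05 and -2.85 at day 21. Of 7 heart muscle genes tested out of 8, only Myh6 fell, at day 14, where it was at 0 to 0.114 CPM. The part of these cells in the values of the 8 members was not tested.

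The 8 members did not share a single profile. By root-mean-square difference of centred log2 CPM over the 15 libraries, the nearest pairs were Efnb2 with Hey1 (0.20), Bmx with Hey1 (0.27), Efnb2 with Bmx (0.30) and Gja5 with Gja4 among the genes that rose (0.41). Dkk2 was farthest from the mean profile of the members (1.29) and Sox17 nearest (0.32). Among 11814 other genes with a mean of at least 5 CPM, those nearest to the mean member profile were Apcdd1 (0.19), Tead2 (0.21), Chfr (0.23), Nxpe4 (0.23) and Jam2 (0.23). Dkk2, with a range of 5.6 on the log2 scale over the libraries against 1.24 to 2.11 for the other members, weighs on that mean profile. With Dkk2 left out of it, after seeing the data, none of these 5 was among the nearest 5, which were Pcgf1 (0.14), Brf1 (0.15), Zbtb17 (0.16), Ppp1r12c (0.16) and Adck5 (0.16). These distances are a description over libraries that share their day groups.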

How the data were processed

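The deposited table holds raw read counts per Ensembl gene for 15 mouse whole-lung libraries, which the authors made with no normalization: reads were trimmed with TrimGalore, aligned to mm10 (GRCm38) with HISAT2 2.1.0, stripped of multimapped reads and counted with HTSeq 0.6.0, per the labels and the study's methods. The strand setting and annotation release were not given in the sources used here, so reads of genes that overlap on opposite strands cannot be told apart. Symbols, positions and exon lengths came from GENCODE M21 (33267 of 33340 identifiers matched, and the rest held 0.00889% of counts). Groups and replicate numbers came from the sample titles, which give 4, 4, 4 and 3 libraries at days 0, 7, 14 and 21, whereas the series text speaks of 3 replicates for each time point.

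Counts were tested with edgeR 4.0.16 in R 4.3.3 (filterByExpr by day, TMM, estimateDisp, glmQLFit and glmQLFTest), in a single fit of all 15 libraries with no covariate beside day. Replicates varied by a common coefficient of 22.8% (biological, from edgeR). Thresholds followed the study: a fold change above 1.5 and a p below 0.05 after Benjamini-Hochberg adjustment across 17457 genes. CPM used TMM-adjusted library sizes, and log2 CPM a prior count of 2. Alternatives were DESeq2 1.42.0, limma voom (limma 3.58.1), total count and RLE scaling, other filters and thresholds, the 2 groups alone, a replicate block, mitochondrial share as a covariate, scaling to 12 pan-endothelial genes and leaving out each library. Fits within libraries of like mitochondrial share (under 2.5% or over 3.5%) were added after seeing the data.

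The 8 genes and all lists were chosen with earlier results of these data known, so no set test was run. Genes named from a list are its first gene and, among genes changed against day 0 at any later day, up to 2 that rose the furthest and 2 that fell the furthest. Others (Apln, Cdh5, Erg, Hes1, Hey2, Nrarp, Sox7, Sox18, Epha4, Lrp6 and Vwf) were named after their values were seen. The 5 genes nearest in profile exclude predicted genes. Promoter sequences came from RefSeq (GRCm38.p6).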

Additional observations from a re-analysis of the deposited data

Results flagged for a closer look

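Of the 24 groups of 4 libraries (8 genes at days 0, 7 and 14), 3 held a library far from the other 3 by Dixon's criterion at 95%, which has a nominal rate of 5%. The groups are genes read in the same libraries and are not independent, so the count cannot be set against that rate as a measure of chance. Day 21, with 3 libraries, was not tested in this way. All 3 were at day 14. Gja4 in day 14 replicate 1 was at 29.8 CPM, against 69.1 to 72.3 CPM in the others. Bmx in day 14 replicate 2 was at 10.8 CPM, against 6.52 to 7.15 CPM. Hey1 in the same library was at 72.6 CPM, against 45.1 to 46.1 CPM. Day 14 replicate 1 had a mitochondrial share of 2.1% of counts, against 3.73 to 4.14% in the other day 14 libraries, and its pan-endothelial score was the lowest of the series (-0.89). Day 14 replicate 2, at a mitochondrial share of 3.79%, also held the highest day 14 values of Gja5, Gja4, Dkk2, Efnb2 and Dll4. The cause of these deviations was not tested.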

How the results depend on the processing

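Of 856 alternative values of the members' log2 fold changes, 764 kept their direction and their side of the thresholds, 65 lost a call, 14 gained one and 13 changed sign. Scaling to pan-endothelial RNA, which moves all genes alike, is not among these 856. None of the sign changes was in a called value. The calls of Gja5 and Dkk2 at days 14 and 21 against day 0 held in every alternative, and that of Hey1 at day 7 in all but the scaling to pan-endothelial RNA (-0.48, edgeR adjusted p = 0.0510).

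With mitochondrial share as a covariate, all genes changed numbered 1269 at day 7 (867 higher and 402 lower, against 1533 and 1285), 218 from day 7 to 14 and 942 from day 7 to 21. Members were then 1 higher and 2 lower at day 7, 0 higher from day 7 to 14 and 2 higher from day 7 to 21. Within libraries of like share, 1 member was higher and 2 lower at day 7, beside 7.54% and 5.27% of all genes. With glmTreat, which tests against the fold threshold itself, all genes changed were 703 (525 higher and 178 lower), 1755 and 1754 at days 7, 14 and 21, 14 from day 7 to 14 and 176 from day 7 to 21, and members lower were 1 at day 7 and 0 at day 14, with 0 higher from day 7 to 14 and 0 from day 7 to 21. With no fold threshold, 4365 genes and 1 member higher (Gja5) were called at day 7. From day 7 to 14, DESeq2 called 1638 genes and 2 members higher, no filter also gave 2 and limma voom 0. From day 14 to 21, DESeq2 called 106 genes and no filter 37.

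Leaving out each library gave 2053 to 2865 genes, 0 to 1 member higher and 3 to 4 lower at day 7. At day 14 it gave 3406 to 4115 genes, 2 to 4 members higher and 3 lower, and at day 21 it gave 3349 to 3822 genes, 2 to 3 members higher and 0 to 1 lower. From day 7 to 14 it gave 340 (without day 7 replicate 4) to 1300 genes and 0 to 1 member higher, from day 7 to 21 it gave 966 (without day 21 replicate 1) to 1822 genes and 2 to 4 members higher, and from day 14 to 21 it gave 0 to 127 (without day 14 replicate 1) genes and 0 members.

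Signs changed against day 0 for Sox17 at day 7 with the covariate (0.080) and on the pan-endothelial scale (0.16), and on that scale for Dll4 at day 14 (0.18) and for Efnb2 (0.15), Bmx (0.055) and Dll4 (0.19) at day 21. From day 7 to 14 they changed with the covariate for Gja4 (-0.12), Efnb2 (-0.27) and Bmx (-0.31), and on the pan-endothelial scale for Efnb2 (-0.032). Leaving out single libraries gave, from day 7 to 14, -0.089 to 0.11 for Efnb2, -0.11 to 0.17 for Bmx and -0.055 to 0.21 for Hey1. From day 14 to 21 it gave -0.061 to 0.46 for Gja4, -0.14 to 0.27 for Sox17 and -0.31 to 0.40 for Dll4. The cause was not tested.

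The replicate numbers are shared by title only. Same-numbered libraries deviated together with a correlation over 0.1 in 8 of 21 pairs (median 0.04, range -0.24 to 0.40). For libraries of different number it was 13 of 63 pairs (median -0.03, range -0.33 to 0.26). Whether same-numbered libraries share an origin was not tested, and they were not treated as pairs. With the replicate block, members called numbered 0 higher and 4 lower at day 7, 3 and 3 at day 14 and 3 and 0 at day 21, as without it. Of all 17457 genes tested with the block, 1585 were higher and 1330 lower at day 7. At day 14 these were 2056 and 2057, and at day 21 they were 2024 and 1728. From day 7 to 21 Efnb2 gained its call (0.62, edgeR adjusted p = 0.0394) and Bmx lost it (0.86, edgeR adjusted p = 0.0761). The block changed no other call among the members. With 3 to 233 counts per library, Dkk2 has the widest counting error of the 8 genes.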
